A study of Homo sapiens with 4 samples.

Results

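The mitochondrial carriers of the SLC25 family were described in human cell lines in which ADAR had been knocked down or not. ADAR, also called ADAR1, is an RNA editing enzyme that turns adenosines of double-stranded RNA into inosines. A gene belonged to the family here if its symbol in the platform annotation was SLC25A followed by a number and stood alone on its transcript cluster, the unit for which the exon array gives 1 value. A gene with several clusters took the brightest. This gave 33 of the 14232 genes measured. Another 9 SLC25 symbols stood only on clusters annotated to several genes and have no value here.

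SLC25 proteins are nuclear-encoded transporters that, with few exceptions, sit in the inner mitochondrial membrane and move nucleotides, phosphate, keto acids, amino acids and cofactors between cytosol and matrix, mostly by exchanging one solute for another. They link glycolysis, fatty acid oxidation, amino acid breakdown and heme and iron-sulfur cluster synthesis to the matrix enzymes. The iron importer SLC25A37 (mitoferrin-1) is known for its part in heme synthesis of developing red cells, and SLC25A13 (citrin) for the malate-aspartate shuttle and urea cycle of liver.

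Samples were total RNA from HepG2, a liver carcinoma line grown in DMEM, and K562, a line from a myeloid leukaemia that keeps erythroid traits, grown in RPMI 1640. Cells of each line carried a stably transfected plasmid, with an siRNA against ADAR1 (ADARkd) or a scrambled siRNA (SCR), so the controls had also been transfected. Whether the transfected cells were clones or pools, and whether arms came from separate cultures, is not stated. Each combination of line and arm had 1 array, 4 in all, and this number limits the precision of every value: no knockdown difference has a replicate check. Levels are log2 intensities, on which a difference of 1 is 2-fold, and depend on each cluster's probes as well as on RNA, so levels were compared between arrays and not between genes.

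ADAR, the targeted gene, stood at 7.27 in the ADARkd array and 8.96 in the SCR array labelled HepG2, a log2 difference of -1.69. In K562 it stood at 6.78 in ADARkd and 7.99 in SCR, a difference of -1.21. Of 8 measured hepatocyte markers, 1 (CPS1) reached the median level of its line on the arrays labelled HepG2, and albumin, ALB, stood at 2.97 in ADARkd and 3.04 in SCR there. These arrays are therefore called labelled HepG2 throughout. Of 10 fibroblast and stromal markers, 7 reached it there and 1 did in K562. Summed intensities of the 10 were 2199 in ADARkd and 2199 in SCR labelled HepG2, and 456 in ADARkd and 497 in SCR of K562. All 7 measured erythroid markers reached the median in K562, with sums of 5173 in ADARkd and 5725 in SCR.

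The 8 highest log2 intensities among the carriers, which give no order of RNA amounts, were those of SLC25A1, SLC25A39, SLC25A37, SLC25A13, SLC25A46, SLC25A11, SLC25A17 and SLC25A24, with levels of 6.73 to 9.32 over the 4 arrays. A gene was kept in a line when its mean over that line's 2 arrays was no lower than the median mean of all genes, 5.28 in K562 and 5.31 on the arrays labelled HepG2. In each line 25 of the 33 carriers were kept, and 24 in both. SLC25A42 was kept in K562 alone and SLC25A45 on the arrays labelled HepG2 alone. The 7 carriers kept in neither line had levels of 3.11 to 5.23, where background can set the value. They were SLC25A2, SLC25A18, SLC25A31, SLC25A34, SLC25A41, SLC25A47 and SLC25A48.

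**Figure D1:**
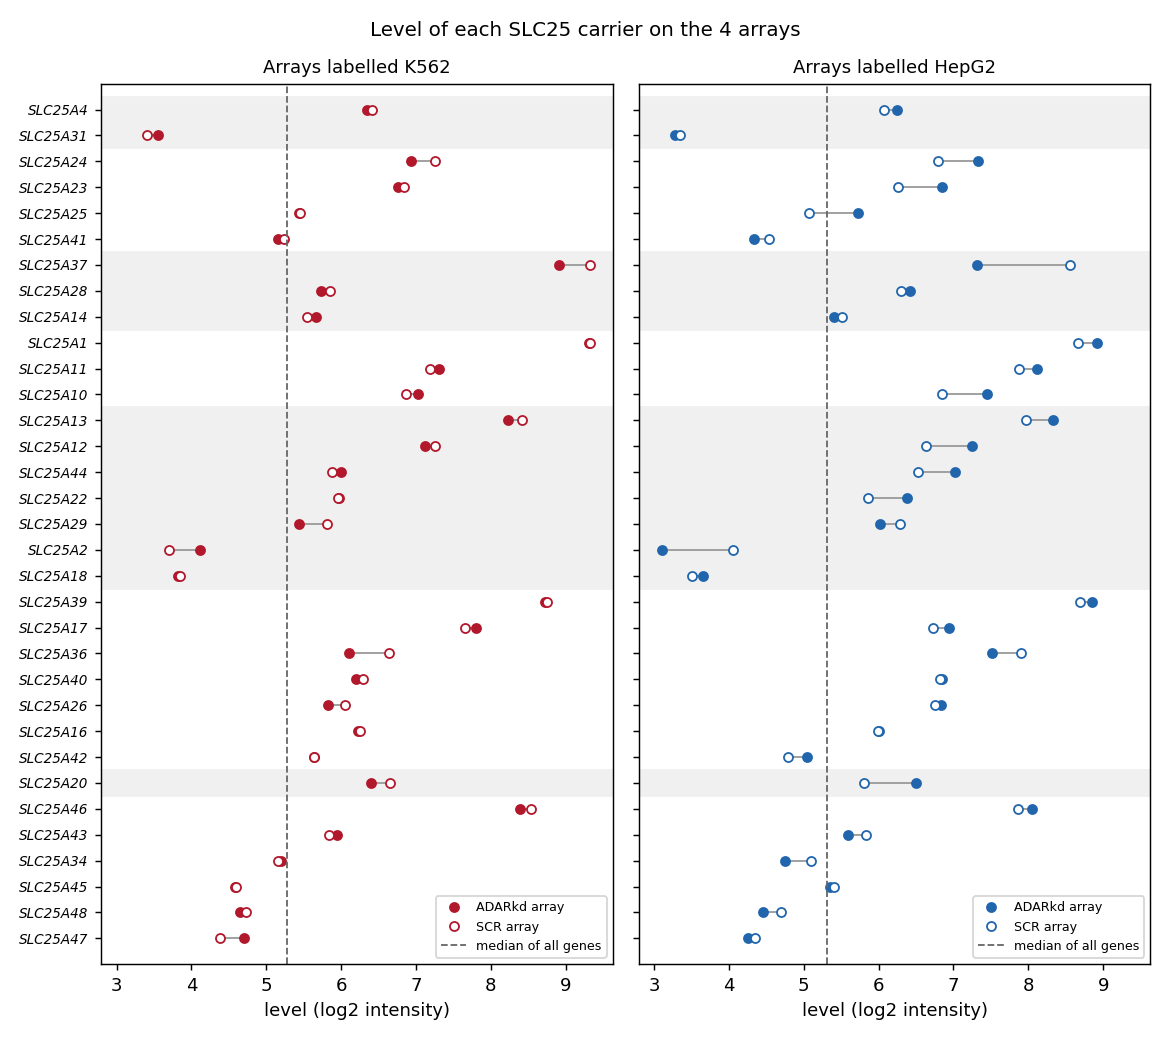
Level (log2 intensity, x axis) of each of the 33 SLC25 carriers on the 4 arrays, grouped by role in shaded bands; filled points are ADARkd arrays, open points SCR arrays, and the dashed line is the median of all genes in that line. SLC25A37 has the widest gap among kept carriers on the arrays labelled HepG2, 7.31 in ADARkd against 8.56 in SCR.

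Across the kept carriers on the arrays labelled HepG2, the median log2 difference (ADARkd minus SCR) was 0.19, against 0.11 over all 7116 kept genes. Of the 25 carriers, 19 were higher and 6 lower in ADARkd (76%, against 60.9% of all kept genes with a difference above 0). At least 1.5-fold higher were 4 of 25 (16%, against 12.4% of all kept genes), namely SLC25A20, SLC25A25, SLC25A12 and SLC25A10. Of these, SLC25A25 was kept only through its ADARkd array (5.73), because its SCR level (5.08) was under the filter level of 5.31. At least 1.5-fold lower was 1 of 25, SLC25A37 (4%, against 5.73%). It was also the 1 carrier at least 2-fold apart, as were 4.03% of all kept genes. The shares past 1.5-fold were thus near those of all genes. After quantile normalization the median difference of all kept genes was 0.01, that of the carriers 0.10, and the split was 16 higher against 9 lower; SLC25A20 and SLC25A25 were then the 2 carriers past 1.5-fold higher, as they were after cyclic loess. With 16 added before taking log2, none of the 4 was past 1.5-fold. The fibroblast and stromal markers differed between the arms on these arrays: of 7 kept, 4 were at least 1.5-fold lower in ADARkd and 2 higher, with a median of -1.12, and their part in the carriers' differences was not tested. In bulk RNA, fewer cells of a type and less RNA per cell cannot be told apart.

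In K562 the differences were smaller. They ran from -0.53 to 0.16 over the 25 kept carriers, with a median of -0.06, against -0.07 over all kept genes. None was 1.5-fold apart, while 0.267% of all kept genes were 1.5-fold higher, 0.759% 1.5-fold lower and 0.155% at least 2-fold apart. There were 7 carriers higher and 18 lower in ADARkd (28% higher, against 33.3% of all kept genes). After quantile normalization the split was 14 higher against 11 lower and the median 0.01, so the family's direction in K562 turned with the scaling. The SD of the differences over the carriers was 0.19 in K562 and 0.42 on the arrays labelled HepG2, against 0.19 and 0.47 over all kept genes.

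Of the 24 carriers kept in both lines, 16 had opposite signs in the lines, 14 of them higher in ADARkd on the arrays labelled HepG2 and lower in K562. That is 66.7%, against 52.9% of all genes kept in both. The count was 9 after quantile normalization and 13 after loess, so it depends on the scaling. In the limma fit of an ADARkd effect shared by both lines, 0 of 24 carriers passed an adjusted p of 0.05, as did 0 of 6204 genes (0%). ADAR itself, the targeted gene, did not pass (-1.45 ± 0.22, limma adjusted p = 0.87), so a count of 0 carriers says little. At an unadjusted p under 0.05 the fit gave 1 carrier, SLC25A37, and 2.89% of all genes. SLC25A37, lower in ADARkd in both lines, had a shared difference of -0.83 ± 0.25 (SE; limma adjusted p = 0.9996).

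**Figure D2:**
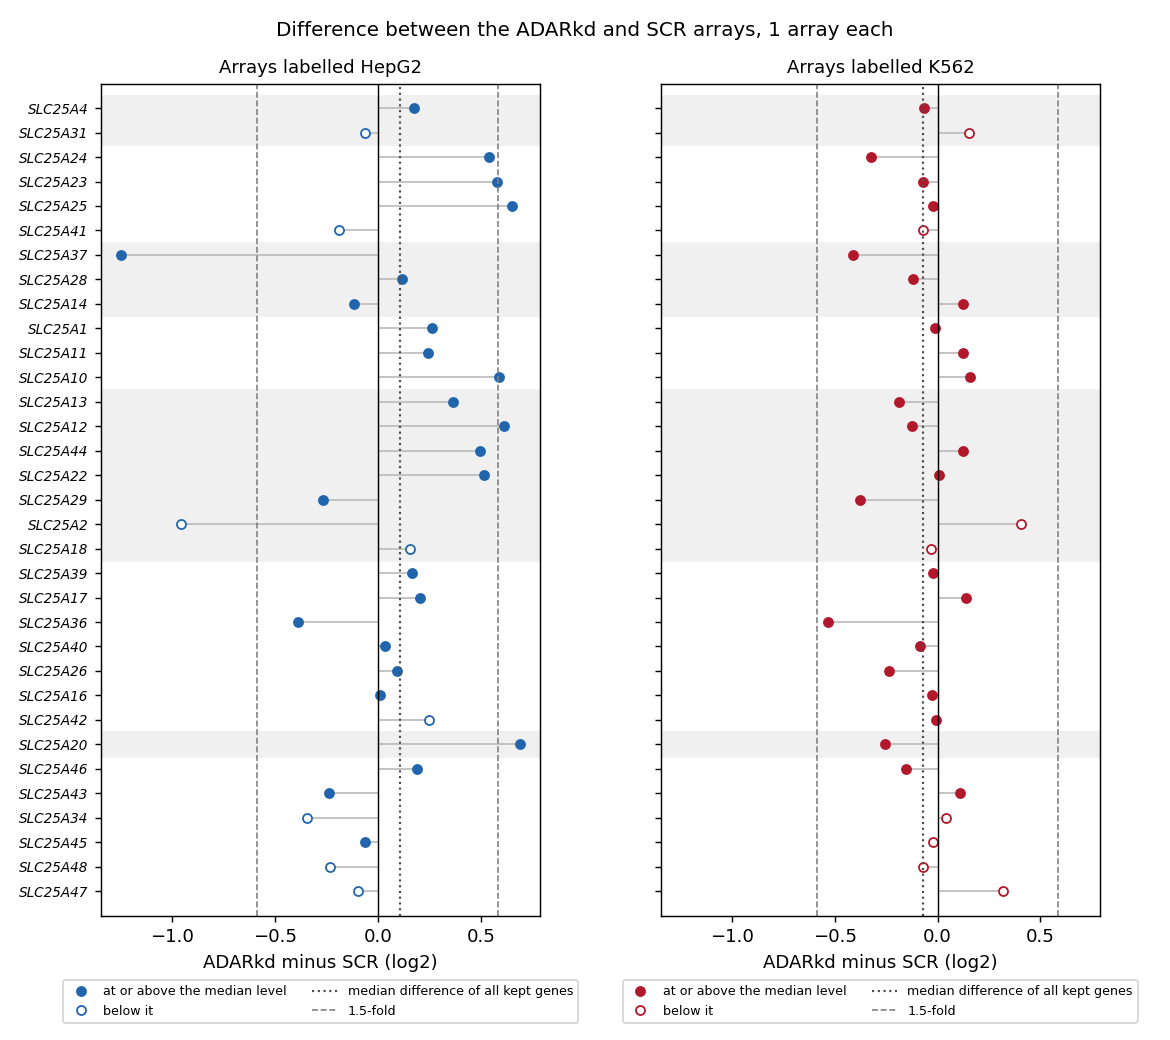
Log2 difference, ADARkd minus SCR, of each carrier (x axis) on the arrays labelled HepG2 and in K562, 1 array per arm; filled points are carriers at or above the median level of the line, dashed lines mark 1.5-fold and the dotted line the median difference of all kept genes. Among kept carriers, SLC25A20, SLC25A25, SLC25A12 and SLC25A10 lie past 1.5-fold on the right in HepG2-labelled arrays and SLC25A37 on the left. The open point past it on the left there is SLC25A2 (-0.95), kept in neither line. No kept carrier lies past 1.5-fold in K562.

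Among the carriers of iron and those like uncoupling proteins, SLC25A37, the mitoferrin that supplies iron for heme in erythroid cells, stood at 7.31 in ADARkd and 8.56 in SCR on the arrays labelled HepG2, and at 8.91 in ADARkd and 9.32 in SCR of K562. Both ADARkd arrays were below their SCR arrays, by 2.37-fold and 1.33-fold. It ranked number 70 from the lowest difference of 7116 kept genes on the arrays labelled HepG2 and number 254 in K562. A second SLC25A37 cluster on the array gave differences of -0.77 and -0.19, in the same direction and smaller. SLC25A28, the mitoferrin of other tissues, stood at 6.42 in ADARkd and 6.30 in SCR labelled HepG2 (0.12), and at 5.73 in ADARkd and 5.85 in SCR of K562 (-0.12). SLC25A14, a relative of the uncoupling proteins, stood at 5.40 in ADARkd and 5.52 in SCR labelled HepG2 (-0.11), and at 5.66 in ADARkd and 5.54 in SCR of K562 (0.12). Both of these carriers had opposite signs in the lines.

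The ATP-Mg/phosphate carriers, which adjust the adenine nucleotide content of the matrix, mostly in response to calcium, were all higher in ADARkd on the arrays labelled HepG2 where kept. SLC25A25 stood at 5.73 in ADARkd and 5.08 in SCR there (0.65), and at 5.43 in ADARkd and 5.45 in SCR of K562 (-0.02). Its SCR level labelled HepG2 lay under the median of all genes, so the size is uncertain. SLC25A23 stood at 6.84 in ADARkd and 6.26 in SCR labelled HepG2, a difference of 0.581, just under the 1.5-fold bound of 0.585, and at 6.76 in ADARkd and 6.83 in SCR of K562 (-0.07). SLC25A24 stood at 7.33 in ADARkd and 6.79 in SCR labelled HepG2 (0.54), and at 6.94 in ADARkd and 7.26 in SCR of K562 (-0.32). SLC25A41, the other measured ATP-Mg/phosphate carrier and not one regulated by calcium, was kept in neither line. The 3 kept were higher in ADARkd in one line and lower, by less, in the other. The ADP/ATP exchanger SLC25A4, which delivers ATP to the cytosol, stood at 6.25 in ADARkd and 6.08 in SCR labelled HepG2 (0.17), and at 6.35 in ADARkd and 6.41 in SCR of K562 (-0.06). Its value is uncertain, because the other exchangers of this group have very similar transcripts that can bind the same probes. The testis form SLC25A31 was in the group kept in neither line.

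SLC25A20, the carnitine-acylcarnitine carrier through which long-chain fatty acids reach the matrix, had the highest difference of the kept carriers on the arrays labelled HepG2. It stood at 6.50 in ADARkd and 5.81 in SCR (0.69, or 1.61-fold), and at 6.40 in ADARkd and 6.65 in SCR of K562 (-0.26). The arms lay in opposite order in the lines. Of its partner enzymes in the carnitine shuttle, 3 were kept on the arrays labelled HepG2 and none was 1.5-fold apart in either line. Over all kept genes labelled HepG2, 12.4% were 1.5-fold higher and 5.73% lower. CRAT, carnitine acetyltransferase, came nearest, at 5.53 in ADARkd and 6.08 in SCR labelled HepG2 (-0.55), opposite in sign to SLC25A20. The other kept partners, CPT1A and CPT2, had the signs of SLC25A20 in both lines. CPT1A differed by 0.10 labelled HepG2 and -0.02 in K562, and CPT2 by 0.07 and -0.34.

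Carriers of di- and tricarboxylates and keto acids were higher in ADARkd on the arrays labelled HepG2. SLC25A10, the dicarboxylate carrier that exchanges malate or succinate for phosphate, stood at 7.44 in ADARkd and 6.85 in SCR there (0.59), and at 7.02 in ADARkd and 6.86 in SCR of K562 (0.16, the highest of the kept carriers in that line). SLC25A11, the oxoglutarate-malate carrier, stood at 8.12 in ADARkd and 7.87 in SCR labelled HepG2 (0.24), and at 7.31 in ADARkd and 7.19 in SCR of K562 (0.12). Both were higher in the ADARkd array of both lines. SLC25A1, the citrate carrier that feeds cytosolic fatty acid synthesis, stood at 8.92 in ADARkd and 8.66 in SCR labelled HepG2 (0.26), and at 9.31 in ADARkd and 9.32 in SCR of K562 (-0.01). Of the 6 measured enzymes of citrate export and its use, none was 1.5-fold apart in either line. Over all kept genes labelled HepG2, 12.4% were 1.5-fold higher and 5.73% lower. IDH2, the matrix isocitrate dehydrogenase, differed by -0.34 and -0.38, lower in both ADARkd arrays.

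The aspartate-glutamate carriers complete the malate-aspartate shuttle with SLC25A11. SLC25A12 (aralar) stood at 7.24 in ADARkd and 6.63 in SCR labelled HepG2 (0.61), and at 7.12 in ADARkd and 7.25 in SCR of K562 (-0.13). SLC25A13 (citrin) stood at 8.33 in ADARkd and 7.97 in SCR labelled HepG2 (0.36), and at 8.22 in ADARkd and 8.41 in SCR of K562 (-0.19). Both had the same order of arms within a line. The 4 shuttle enzymes were higher in ADARkd on the arrays labelled HepG2, with a median of 0.31. Over all kept genes there, 60.9% were higher, 12.4% were at least 1.5-fold higher, and the median was 0.11. GOT2, the mitochondrial aspartate transaminase, was the 1 shuttle enzyme past 1.5-fold, at 0.80. In K562 the median of the 4 was -0.07, as it was over all kept genes.

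Other amino acid carriers were mixed. SLC25A22, which brings glutamate in, stood at 6.38 in ADARkd and 5.86 in SCR labelled HepG2 (0.52), and at 5.97 in ADARkd and 5.96 in SCR of K562 (0.01). SLC25A44, a carrier of branched-chain amino acids, stood at 7.03 in ADARkd and 6.53 in SCR labelled HepG2 (0.49), and at 6.00 in ADARkd and 5.88 in SCR of K562 (0.12). SLC25A29, which carries basic amino acids, stood at 6.02 in ADARkd and 6.29 in SCR labelled HepG2 (-0.27), and at 5.44 in ADARkd and 5.82 in SCR of K562 (-0.38). SLC25A29 was thus lower in both ADARkd arrays, and with SLC25A37 and SLC25A36 it made up the 3 kept carriers for which that held. SLC25A2, an ornithine carrier kept in neither line, differed by -0.95 in ADARkd labelled HepG2 and by 0.41 in ADARkd of K562, at levels of 3.11 to 4.11.

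SLC25A36, a carrier of pyrimidine nucleotides, led the cofactor and nucleotide carriers. It stood at 7.51 in ADARkd and 7.90 in SCR labelled HepG2 (-0.39), and at 6.11 in ADARkd and 6.64 in SCR of K562 (-0.53, the lowest of the kept carriers there and number 93 from the lowest of 7116 genes). Both ADARkd arrays were lower. SLC25A26, which imports the methyl donor S-adenosylmethionine, stood at 6.84 in ADARkd and 6.75 in SCR labelled HepG2 (0.09), and at 5.82 in ADARkd and 6.06 in SCR of K562 (-0.23). SLC25A17, a carrier of the peroxisome, stood at 6.94 in ADARkd and 6.73 in SCR labelled HepG2 (0.21), and at 7.80 in ADARkd and 7.66 in SCR of K562 (0.14). The glutathione carrier SLC25A39 stood at 8.85 in ADARkd and 8.69 in SCR labelled HepG2 (0.17), and at 8.73 in ADARkd and 8.75 in SCR of K562 (-0.02). Its relative SLC25A40 stood at 6.85 in ADARkd and 6.82 in SCR labelled HepG2 (0.03), and at 6.20 in ADARkd and 6.29 in SCR of K562 (-0.08). The arms of both lay close in each line.

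SLC25A42, which imports coenzyme A, stood at 5.63 in ADARkd and 5.64 in SCR of K562 and under the median at 5.04 in ADARkd and 4.79 in SCR labelled HepG2. SLC25A16, related to the yeast carrier of coenzyme A, stood at 6.01 in ADARkd and 6.00 in SCR labelled HepG2 (0.01), and at 6.23 in ADARkd and 6.25 in SCR of K562 (-0.03). A second SLC25A16 cluster gave -0.08 and 0.58, so the K562 value of this gene differs between clusters. Of carriers with no settled substrate, SLC25A46, a protein of the outer membrane that acts in mitochondrial shape, stood at 8.05 in ADARkd and 7.86 in SCR labelled HepG2 (0.19), and at 8.39 in ADARkd and 8.54 in SCR of K562 (-0.15). SLC25A43 stood at 5.59 in ADARkd and 5.83 in SCR labelled HepG2 (-0.24), and at 5.95 in ADARkd and 5.84 in SCR of K562 (0.11). SLC25A45 stood at 5.35 in ADARkd and 5.41 in SCR labelled HepG2 (-0.06), and at 4.58 in ADARkd and 4.60 in SCR of K562, where it was not kept. The arms of SLC25A43 had opposite orders in the lines.

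The lines were then compared across both arms, K562 minus the arrays labelled HepG2, with limma over all 14232 genes. The lines also differed in medium, and line and medium cannot be told apart. Most carriers lay close between the lines: the median absolute difference was 0.25 over the 33 carriers and 0.38 over all genes. At an adjusted p under 0.05 and at least 2-fold, 1 carrier was higher in K562, against 6.84% of all genes, and 1 lower, against 9.26%. At the same p with no bound on size, 4 carriers were higher (15.5% of all genes) and 5 lower (14.4%).

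SLC25A37 rose in K562 by 1.18 ± 0.24 (SE, 2 arrays per line; limma adjusted p = 0.00526), or 2.26-fold. On its brightest cluster the difference was 1.59 between the ADARkd arrays and 0.76 between the SCR arrays, so without the ADARkd arrays it was under 2-fold. The second SLC25A37 cluster stood at 8.96 in ADARkd and 9.16 in SCR of K562. Labelled HepG2, that cluster stood at 7.11 in ADARkd and 7.89 in SCR, so it was past 2-fold in both arms. SLC25A36 fell by 1.33 ± 0.21 (limma adjusted p = 0.00126), 2.51-fold lower in K562, with -1.40 between the ADARkd arrays and -1.25 between the SCR arrays. Judged on the brightest cluster of each gene, it was the 1 carrier at least 2-fold apart in both arms. ABCB10, an inner membrane transporter known to bind and stabilise SLC25A37, was higher in K562 by 1.77 ± 0.22 (limma adjusted p = 0.000241). It is 1 of 15 measured other channels and carriers of the mitochondrial membranes. Of these, 3 passed as higher, against 6.84% of all genes, and 2 as lower, against 9.26%. ALAS2, which starts erythroid heme synthesis, passed as higher in K562, at 8.31 in ADARkd and 8.64 in SCR, against 3.51 in ADARkd and 3.67 in SCR labelled HepG2. The levels labelled HepG2 are in the range that background can set, so no fold is given. CPOX, a later enzyme of that pathway, was higher in K562 by 1.67 and also passed. ALAS2 and CPOX belong to the mitochondrial iron list, which also holds enzymes of heme synthesis that do not themselves use iron, these among them. Of its 8 measured genes, 2 passed as higher, against 6.84% of all genes, and 0 as lower, against 9.26%. The others did not pass, among them FECH (-0.14), ALAS1 (0.01) and NFS1 (0.14). SLC25A28, the other mitoferrin, differed by -0.57 (adjusted p = 0.0687).

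The remaining 7 carriers that passed on p alone differed by less than 2-fold. Higher in K562 were SLC25A17 (0.90 ± 0.21), SLC25A41 (0.76 ± 0.19) and SLC25A42 (0.72 ± 0.20). SLC25A41 was under the median level of all genes in both lines and SLC25A42 on the arrays labelled HepG2. After cyclic loess SLC25A41 (limma adjusted p = 0.0537) and SLC25A42 (limma adjusted p = 0.0676) no longer passed, and after quantile normalization SLC25A1 did (limma adjusted p = 0.0403). Lower in K562 were SLC25A26 (-0.86 ± 0.21), SLC25A44 (-0.84 ± 0.22), SLC25A45 (-0.79 ± 0.19, under the median in K562) and SLC25A11 (-0.74 ± 0.21). All 7 had the same sign in both arms, as had 23 of the 33 carriers. The 10 that turned sign between arms included SLC25A20 (-0.10 between ADARkd arrays and 0.84 between SCR arrays) and SLC25A12 (-0.12 and 0.62). The arrays within a line also differ by knockdown, and the fit has 1 residual degree of freedom, so its p-values are approximate.

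**Figure D3:**
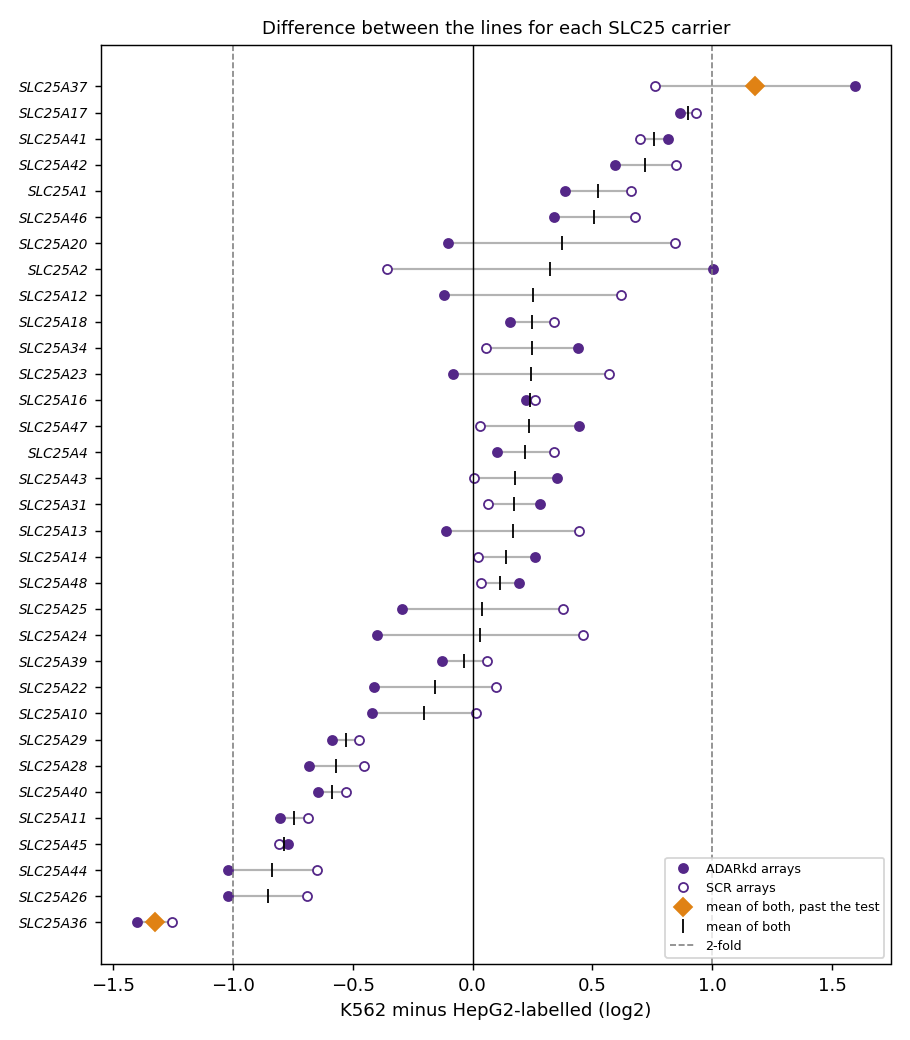
K562 minus HepG2-labelled difference (log2, x axis) of each carrier between the ADARkd arrays (filled), between the SCR arrays (open) and as the mean of both (bar, or diamond where it passed the limma test at 2-fold); dashed lines mark 2-fold. SLC25A37 and SLC25A36 pass, SLC25A36 with both arms beyond 2-fold and SLC25A37 with the SCR arrays at 0.76. Values are those of each gene's brightest cluster.

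SLC25A36 and SLC25A25 were chosen because they were the 2 carriers with the rare cAMP response element in a sequence before a start. Their sharing of this motif is thus the rule of choice and not a finding from their values. SLC25A20 was chosen because it had the highest knockdown difference on the arrays labelled HepG2. SLC25A25 had the next highest, and SLC25A36 was the 1 carrier at least 2-fold apart between the lines in both arms. The sequences before the starts of SLC25A36, SLC25A20 and SLC25A25 are given. Each is the 250 bases upstream of a RefSeq start in GRCh38.p14, 5′ to 3′ on the gene's strand, with capitals for the GC box GGGCGG, the E-box CACGTG, the cAMP response element TGACGTCA and the CCAAT box, searched on both strands. SLC25A36 is chr3:140941586-140941835 on the plus strand and SLC25A20 is chr3:48898883-48899132 on the minus strand. SLC25A25, shown for 1 of its 3 starts, is chr9:128098257-128098506 on the plus strand. That start was taken because its sequence holds the cAMP response element, which those of the other SLC25A25 starts lack.
SLC25A36: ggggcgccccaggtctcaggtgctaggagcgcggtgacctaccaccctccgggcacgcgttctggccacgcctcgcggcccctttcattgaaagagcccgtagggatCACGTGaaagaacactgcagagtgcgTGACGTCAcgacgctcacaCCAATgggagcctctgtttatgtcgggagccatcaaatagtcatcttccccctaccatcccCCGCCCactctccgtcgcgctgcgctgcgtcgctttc
SLC25A20: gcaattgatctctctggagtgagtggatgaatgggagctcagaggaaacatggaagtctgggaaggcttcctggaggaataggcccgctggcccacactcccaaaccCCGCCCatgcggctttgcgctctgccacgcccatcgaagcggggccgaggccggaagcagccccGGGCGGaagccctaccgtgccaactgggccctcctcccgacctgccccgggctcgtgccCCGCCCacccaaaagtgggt
SLC25A25: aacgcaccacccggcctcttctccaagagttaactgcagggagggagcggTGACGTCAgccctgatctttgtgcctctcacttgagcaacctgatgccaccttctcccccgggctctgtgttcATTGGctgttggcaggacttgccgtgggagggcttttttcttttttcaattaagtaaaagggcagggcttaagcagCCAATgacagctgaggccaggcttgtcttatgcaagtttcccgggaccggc

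RefSeq windows were found for 29 of the 33 carriers, 39 windows in all. The GC box was in 24 of them (61.5%, against 42.6% of all 35116 windows), the E-box in 5 (12.8% against 6.34%), the cAMP response element in 2 (5.13% against 1.65%) and the CCAAT box in 15 (38.5% against 32%). In the windows shown, none of these motifs overlaps another. The cAMP response element letters of SLC25A36 begin 117 bases before its start and those of SLC25A25 begin 200 bases before. On the arrays labelled HepG2, SLC25A25 was higher in ADARkd (0.65) and SLC25A36 lower (-0.39). In K562 they differed by -0.02 and -0.53. Whether the motif bears on these values was not tested. A match is a run of letters and not a site known to be bound.

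Genes that bring carriers into the inner membrane were set beside the family. Of 8 kept genes of the carrier import machinery on the arrays labelled HepG2, 3 were at least 1.5-fold higher in ADARkd and 0 lower, with a median of 0.30. Over all kept genes there, 12.4% were 1.5-fold higher and 5.73% lower, with a median of 0.11. TIMM22, the pore of the carrier translocase, stood at 8.24 in ADARkd and 7.17 in SCR (1.07), above the 2-fold bound. TIMM10, a chaperone of carrier precursors between the membranes, stood at 6.45 in ADARkd and 5.75 in SCR (0.71), and TOMM22, a receptor of the outer membrane, at 7.48 in ADARkd and 6.82 in SCR (0.66). In K562 none of 9 kept genes was 1.5-fold apart. There 7 of the 9 were higher in ADARkd (77.8%, against 33.3% of all kept genes), with a median of 0.13 against -0.07 over all kept genes. TOMM7, a small subunit of the outer membrane translocase, was just under the bound at 0.58, and TIMM22 differed by -0.02.

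Other channels and carriers of the mitochondrial membranes had 3 of 12 kept genes at least 1.5-fold higher in ADARkd on the arrays labelled HepG2 and 1 lower, with a median of 0.27, beside the same 12.4% and 5.73% of all kept genes. MPC1 and MPC2, the subunits of the pyruvate carrier, which is no SLC25 protein, differed by 1.30 and 0.95, and the calcium uniporter pore MCU by 0.98. SFXN3, a sideroflexin, differed by -0.79. In K562 none of 14 was 1.5-fold apart, with MPC1 at -0.18 and MPC2 at 0.20. Family members under other symbols were few: MTCH1, an outer membrane relative, differed by -0.60 on the arrays labelled HepG2. UCP2, an uncoupling protein of blood cells, passed as higher in K562 (limma adjusted p = 3.65e-06), at 8.19 in ADARkd and 8.21 in SCR, against 5.03 in ADARkd and 4.80 in SCR labelled HepG2, under the median level there.

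The remaining lists of enzymes on either side of the carriers were also compared between arms. None of the kept genes of the urea cycle (3), folate and glycine (4) and mitochondrial iron (5) lists was 1.5-fold apart on the arrays labelled HepG2, nor any of theirs in K562. Over all kept genes, 12.4% were 1.5-fold higher and 5.73% lower labelled HepG2, and 0.267% and 0.759% in K562. In lists this small, a count of 0 says little. SHMT2, the matrix serine hydroxymethyltransferase, was nearest to the bound, at 9.44 in ADARkd and 10.01 in SCR labelled HepG2 (-0.58).

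**Figure D4:**
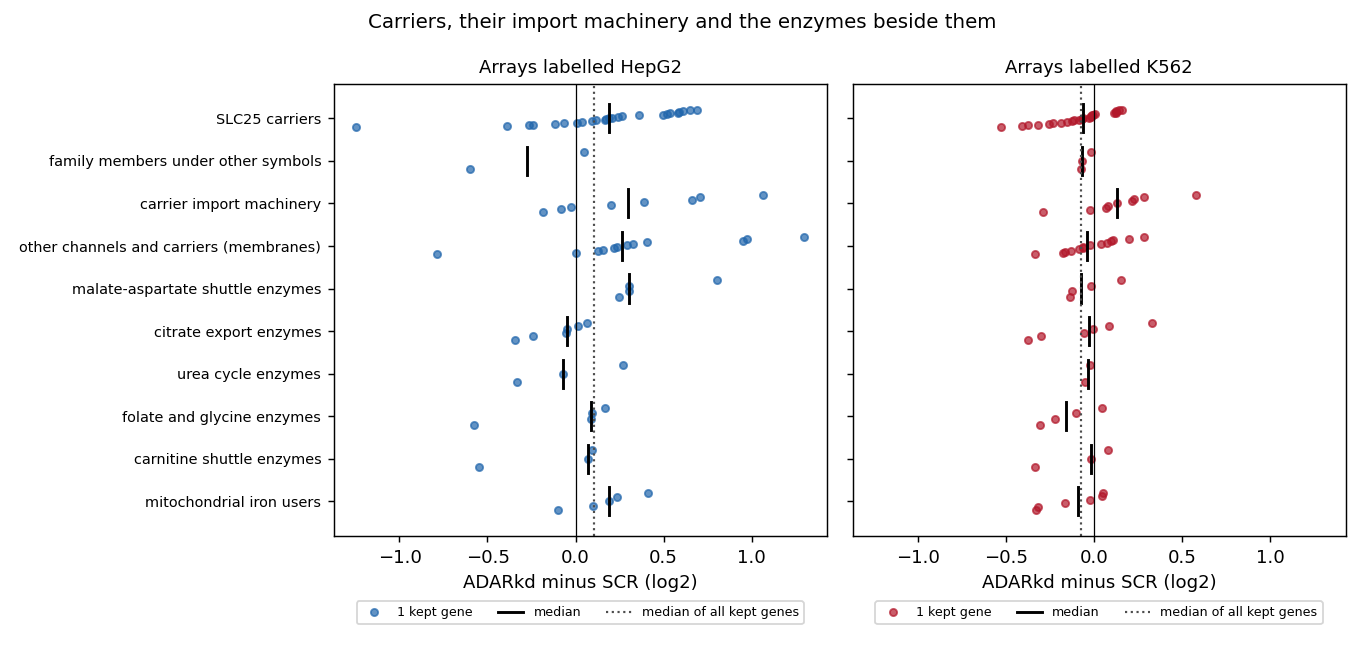
Log2 difference, ADARkd minus SCR (x axis), of every kept gene (points) of the SLC25 family and of the lists around it, with the median of each list (bar) and of all kept genes (dotted), on the arrays labelled HepG2 and in K562. The carrier import machinery has a median of 0.30 and the carriers 0.19 on the arrays labelled HepG2, while in K562 no kept gene shown is 1.5-fold apart. The list named mitochondrial iron users also holds heme synthesis enzymes that do not themselves use iron.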

How the data were processed

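The 4 RNA samples were biotin-labelled with a whole-transcript kit and hybridised to exon arrays, according to the labels. The authors deposited 1 linear intensity for each transcript cluster. The submitters' processing notes list RMA and hg18 without versions; other steps are not known here. Of 17881 clusters, 14432 had 1 symbol, 2408 several and 1041 none; 14404 symbols were matched by Entrez number to RefSeq names and 0 changed. The brightest cluster of a gene was taken, on log2 values with no offset, giving 14232 genes. Differences within a line have 1 array per arm and no test. The line and shared comparisons were fitted across all genes (for the shared one, those kept in both lines) with limma 3.58.1 in R 4.3.3 (line and arm as terms, intensity trend, two-sided, Benjamini-Hochberg), and tested on simulated data. Figures used matplotlib 3.10.9. Members and lists were chosen with earlier results of these data known. The text gives all 4 levels for the 8 brightest carriers, the kept carriers with the 8 highest and 8 lowest differences per line, and those passing the line test, and up to 3 genes of other lists. The motif windows and the examples of sign change were chosen after their values were seen. Those of SLC25A36 and SLC25A25 were chosen for their cAMP response element. Alternatives were quantile normalization, cyclic loess, log2(value + 16), the mean of all clusters, other filters and folds, no trend and each arm alone. Background per probe was not analysed here.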

Additional observations from a re-analysis of the deposited data

Results flagged for a closer look

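For 3 carriers the knockdown difference was past 1.5-fold on the arrays labelled HepG2 and had the opposite sign in K562. The difference of the differences, HepG2-labelled minus K562, was 0.95 for SLC25A20, 0.74 for SLC25A12 and 0.67 for SLC25A25 on the log2 scale. With 1 array per line and arm, the difference between the lines was not tested. The K562 value of SLC25A25 was -0.02, and 0.01 after quantile normalization, so its sign there is not settled. Labelled HepG2, SLC25A25 was kept only through its ADARkd array, its SCR level being under the filter level.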

How the results depend on the processing

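The number of carriers at least 1.5-fold apart on the arrays labelled HepG2 was 5, and 3 after quantile normalization or cyclic loess, where SLC25A12 (0.50 and 0.49) and SLC25A10 (0.47 and 0.47) fell under the bound. It was 1 with log2(value + 16), 2 with the filter at the 75th percentile, 1 at a 2-fold bound and 6 with no filter. The carriers' median there, 0.19, was 0.074 after loess. Their median in K562, -0.06, was 0.012 after quantile normalization. In K562 the count past 1.5-fold was 0 under every alternative run. The shared effect had 0 carriers under each alternative, which says little because ADAR itself did not pass in the main fit. The limma line comparison had 2 carriers under each fit of all 4 arrays. With no test and on brightest clusters, 5 carriers were 2-fold apart between the ADARkd arrays alone and 1, SLC25A36, between the SCR arrays alone. With log2(value + 16), SLC25A12 (0.54), SLC25A10 (0.53), SLC25A20 (0.56) and SLC25A25 (0.47) were under 1.5-fold, as was SLC25A2 (-0.41), which is kept in neither line. SLC25A37 stayed past it under the 4 changes of scale or cluster. Among line differences called on p with no bound on size, SLC25A41 and SLC25A42 no longer passed after cyclic loess (limma adjusted p = 0.0537 and 0.0676), and SLC25A1 passed after quantile normalization (0.0403). None of these calls turned in sign. All genes called between the lines numbered 2291, and 1485 with genes filtered on the mean of 4 arrays or 1598 with log2(value + 16). The shared fit has line as a term and so pairs the arms within each line. With 1 residual degree of freedom, no array could be left out of the fits.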
